A study of Homo sapiens with 4 samples.

Results

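The genes described here are 9 enzymes of serine, glycine and one-carbon metabolism, PHGDH, PSAT1, PSPH, SHMT1, SHMT2, MTHFD1, MTHFD2, MTHFD1L and ALDH1L2, among 20263 gene IDs in the table of counts. They were chosen by pathway, with earlier results of these data known, and were matched to the table by Ensembl ID. All 9 had a row and passed the filter on low counts that left 13879 genes to test. Messenger RNA was sequenced from the human breast cancer line MDA-MB-231, a long-established model of triple-negative disease, after 24 h with Neoribocic (2 libraries) or with DMSO, the solvent control (2 libraries). All cells were kept in DMEM with 10% serum. The series title connects the compound to a block of the cell cycle, the treatment protocol calls it Rib_CA, and no source used here gives its dose. Nothing in the labels says that the 2 libraries of a group were separate cultures, so the spread between them may be technical. All libraries come from the same line, and fewer cells with a transcript cannot be told apart from less of it per cell.

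Serine is made from the glycolytic intermediate 3-phosphoglycerate in a short cytosolic route. PHGDH, PSAT1 and PSPH catalyse its successive steps. Serine hydroxymethyltransferase then splits serine into glycine and a one-carbon unit bound to folate, in the cytosol through SHMT1 and in mitochondria through SHMT2. The unit is oxidised to formate in mitochondria by MTHFD2 and MTHFD1L, or to carbon dioxide by ALDH1L2, and formate is taken up again in the cytosol by the trifunctional MTHFD1, from which it goes into purines, thymidylate and methionine. MDA-MB-231 is widely used as a breast cancer line without the PHGDH amplification found in some others, and the transcription factor ATF4 is a known activator of the serine synthesis genes and of mitochondrial folate genes.

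Among the 9 genes, the serine synthesis genes and the first mitochondrial enzymes were higher with Neoribocic, and the 2 genes of the cytosolic folate branch were lower. PHGDH, PSAT1, PSPH, SHMT2 and MTHFD2 rose, by 1.56-fold to 2.07-fold, and SHMT1 and MTHFD1 fell to 0.62 and 0.42 of their DMSO level. MTHFD1L and ALDH1L2 did not pass the test. By the quasi-likelihood test of edgeR, adjusted after Benjamini and Hochberg over all tested genes and read at a threshold of 0.05, 5 of the 9 genes were thus called higher and 2 lower, where 19.1% of all tested genes were called higher and 21.3% lower, or 40.4% in all. The median log2 fold change (Neoribocic minus DMSO) of the 9 genes was 0.65, beside 0.01 over all tested genes. Because the 9 genes were chosen with earlier results of these data known, these comparisons with all tested genes are descriptions only. In 8 of the 9 genes both Neoribocic libraries lay on one side of both DMSO libraries. That was so in 75.1% of all tested genes, so the count of 8 is near the background.

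**Figure D1:**
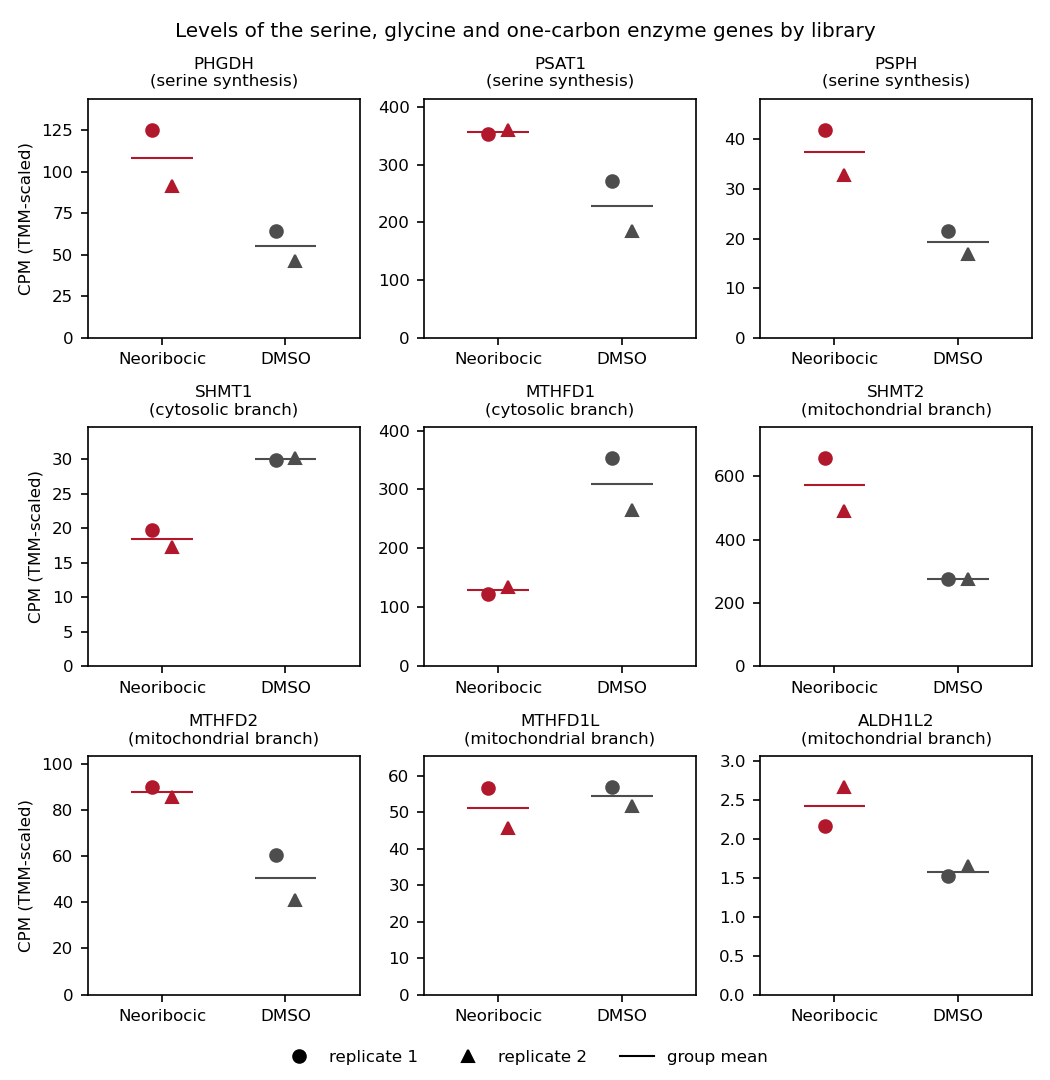
TMM-scaled CPM (counts brought to a common library size; vertical axes from 0, with a scale for each gene) of the 9 genes in the Neoribocic and DMSO libraries; circles are replicate 1, triangles replicate 2 and bars the group means. The groups overlap for MTHFD1L alone of these 9, and Neoribocic lies below DMSO for SHMT1 and MTHFD1.

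Promoter sequence was at hand for 6 of the 9 genes, and it is shown because the set holds 3 genes that rose (PHGDH, PSAT1, MTHFD2), both that fell (SHMT1, MTHFD1) and one that was not called (MTHFD1L). Each line gives the 250 bases before the RefSeq transcription start (GRCh38.p14), 5′ to 3′ on the gene's strand, at chr1:119711684-119711933 (plus) for PHGDH, chr9:78296875-78297124 (plus) for PSAT1, chr2:74198365-74198614 (plus) for MTHFD2, chr17:18363551-18363800 (minus) for SHMT1, chr14:64388103-64388352 (plus) for MTHFD1 and chr6:150866236-150866485 (plus) for MTHFD1L. Capitals mark matches, on either strand, to TGATGNAA, the core of the C/EBP-ATF response element, or to CACGTG, the E-box.
PHGDH: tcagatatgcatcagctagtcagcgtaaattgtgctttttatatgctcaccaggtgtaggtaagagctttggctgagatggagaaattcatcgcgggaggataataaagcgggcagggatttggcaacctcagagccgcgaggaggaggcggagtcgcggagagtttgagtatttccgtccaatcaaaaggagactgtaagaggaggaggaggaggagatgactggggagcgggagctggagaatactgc
PSAT1: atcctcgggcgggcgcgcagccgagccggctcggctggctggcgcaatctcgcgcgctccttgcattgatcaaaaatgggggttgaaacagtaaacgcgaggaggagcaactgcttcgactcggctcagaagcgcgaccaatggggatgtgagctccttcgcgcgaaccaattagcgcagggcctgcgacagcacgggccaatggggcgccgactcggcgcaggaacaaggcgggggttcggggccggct
MTHFD2: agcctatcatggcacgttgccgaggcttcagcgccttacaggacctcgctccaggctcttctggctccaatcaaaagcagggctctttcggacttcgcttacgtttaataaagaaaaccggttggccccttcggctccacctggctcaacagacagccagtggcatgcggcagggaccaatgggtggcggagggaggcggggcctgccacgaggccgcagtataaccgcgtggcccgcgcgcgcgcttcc
SHMT1: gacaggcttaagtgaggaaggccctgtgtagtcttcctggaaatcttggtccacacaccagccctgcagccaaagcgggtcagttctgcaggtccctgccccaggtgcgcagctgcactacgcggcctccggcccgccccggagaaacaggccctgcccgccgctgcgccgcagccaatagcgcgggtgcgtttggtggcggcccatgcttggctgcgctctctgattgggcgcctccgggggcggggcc
MTHFD1: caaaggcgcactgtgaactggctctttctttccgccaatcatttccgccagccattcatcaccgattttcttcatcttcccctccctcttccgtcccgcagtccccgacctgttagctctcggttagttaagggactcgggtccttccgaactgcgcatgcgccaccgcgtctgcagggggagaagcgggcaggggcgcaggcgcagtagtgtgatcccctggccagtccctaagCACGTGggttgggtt
MTHFD1L: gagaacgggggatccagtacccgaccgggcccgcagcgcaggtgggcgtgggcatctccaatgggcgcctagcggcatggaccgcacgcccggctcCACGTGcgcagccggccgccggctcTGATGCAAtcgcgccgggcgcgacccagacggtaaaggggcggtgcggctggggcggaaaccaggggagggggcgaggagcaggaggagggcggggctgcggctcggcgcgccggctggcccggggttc

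TGATGNAA was found once, in MTHFD1L, beginning 129 bases before the start shown. The element stands in 3.14% of the 35116 RefSeq promoter windows of this length. CACGTG was found in MTHFD1, 15 bases before the start, and in MTHFD1L, 154 bases before it, and stands in 6.34% of all windows. MTHFD1L has 4 RefSeq windows. The one shown and one that begins at 150866197 overlap and hold both motifs at the same genomic sites. Those that begin at 150866083 and 151006758 hold neither motif. The 2 motifs do not overlap each other. A match is a description of the letters, and the 3 genes that rose have neither motif in the 250 bases shown.

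All 3 serine synthesis genes rose. PHGDH (ENSG00000092621, chromosome 1), which encodes the dehydrogenase that commits 3-phosphoglycerate to serine, was at 125.0 and 91.1 CPM in the Neoribocic libraries and at 64.0 and 46.5 CPM in the DMSO libraries. Its mean was 108.0 ± 24.0 CPM with Neoribocic and 55.3 ± 12.4 CPM with DMSO (SD, n = 2 each), a log2 fold change of 0.97 ± 0.25 (SE; edgeR adjusted p = 0.0159). The groups did not overlap, and replicate 1 was the higher library in both. PSPH (ENSG00000146733, chromosome 7), the phosphatase of the last step, had 41.9 and 32.9 CPM with Neoribocic and 21.5 and 17.0 CPM with DMSO. It showed the same order of libraries as PHGDH at a lower level, with a log2 fold change of 0.96 ± 0.24 (edgeR adjusted p = 0.0159).

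PSAT1 (ENSG00000135069, chromosome 9), the aminotransferase between them, was at 352.4 and 359.7 CPM with Neoribocic and at 271.1 and 184.2 CPM with DMSO. The Neoribocic libraries lay close together and the DMSO libraries apart, and the log2 fold change was 0.65 ± 0.23 (edgeR adjusted p = 0.0496). Among the called genes of these 9, PSAT1 was nearest to the threshold. Without DMSO replicate 2 its log2 fold change was 0.40 (edgeR adjusted p = 0.205), and it also missed the threshold without Neoribocic replicate 1 (0.145) or 2 (0.134), with limma-voom (0.05) and without edgeR's robust option (0.0626). PHGDH and PSPH lost their calls without DMSO replicate 2 (edgeR adjusted p = 0.0868 and 0.0804) and without Neoribocic replicate 1 (0.114 and 0.0990). GENCODE release 29 lists 4 pseudogenes of PSAT1 and 1 of PSPH, none with a row in the table, so how reads shared with these copies were counted was not tested.

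Both genes of the cytosolic folate branch fell. MTHFD1 (ENSG00000100714, chromosome 14), whose protein activates formate and interconverts cytosolic folates, was at 122.9 and 134.9 CPM in the Neoribocic libraries, against 352.6 and 264.5 CPM in the DMSO libraries. All 4 values lie far from the other group, with means of 128.9 ± 8.49 CPM with Neoribocic and 308.6 ± 62.3 CPM with DMSO (SD, n = 2 each). The log2 fold change was -1.26 ± 0.21 (SE; edgeR adjusted p = 0.00296), and it passed the 0.05 threshold under every alternative run, with adjusted p from 2.65e-06 to 0.0319. Of its exon bases 11% overlap genes on the opposite strand in GENCODE release 29, among them ZBTB25, a zinc finger gene that stood at 34.7 and 46.0 CPM with Neoribocic and 15.2 and 13.5 CPM with DMSO and so differed in the other direction (log2 fold change 1.5 ± 0.24, edgeR adjusted p = 0.00264).

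SHMT1 (ENSG00000176974, chromosome 17), the cytosolic hydroxymethyltransferase, had 19.8 and 17.3 CPM with Neoribocic and 29.9 and 30.1 CPM with DMSO. The groups did not overlap and the spread within each was small, with a log2 fold change of -0.70 ± 0.22 (edgeR adjusted p = 0.0351). That call was lost when any one library was left out. The log2 fold change was then -0.70 without DMSO replicate 1 and -0.68 without DMSO replicate 2. Without Neoribocic replicate 1 it was -0.79 and without Neoribocic replicate 2 it was -0.60. The call was also lost with upper-quartile factors (-0.57, edgeR adjusted p = 0.0622) and with library totals (-0.53, adjusted p = 0.169). These scalings shifted the median log2 fold change of all genes by 0.12 and 0.17.

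Among the 4 mitochondrial enzymes SHMT2 and MTHFD2 rose. SHMT2 (ENSG00000182199, chromosome 12), which makes glycine and the mitochondrial one-carbon unit from serine, was at 655.9 and 489.4 CPM with Neoribocic and at 276.1 and 276.4 CPM with DMSO. The DMSO libraries agreed closely, and both Neoribocic libraries were well above them. The means were 572.6 ± 117.7 CPM with Neoribocic and 276.2 ± 0.171 CPM with DMSO (SD, n = 2 each), a log2 fold change of 1.05 ± 0.21 (SE; edgeR adjusted p = 0.00601). Every alternative run kept the adjusted p of SHMT2 at or under 0.0480, the value without Neoribocic replicate 1. On the opposite strand AC137834.2 and NDUFA4L2 cover 9.5% of the SHMT2 exon bases. NDUFA4L2 had at most 0.0842 CPM in any library, and the level of AC137834.2 is not given here.

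MTHFD2 (ENSG00000065911, chromosome 2), the mitochondrial dehydrogenase and cyclohydrolase that is low in most adult tissues and high in tumours, was at 90.0 and 85.8 CPM with Neoribocic and at 60.3 and 40.8 CPM with DMSO. As for PSAT1, the Neoribocic libraries lay together while the DMSO libraries were spread. The log2 fold change was 0.80 ± 0.24 (edgeR adjusted p = 0.0281). It was not called without DMSO replicate 2 (0.55, edgeR adjusted p = 0.129), without Neoribocic replicate 1 (0.77, adjusted p = 0.115) or without Neoribocic replicate 2 (0.83, adjusted p = 0.0741). On the opposite strand AC006030.1 and SLC4A5 cover 33.2% of the MTHFD2 exon bases. SLC4A5 did not exceed 0.871 CPM, the level of AC006030.1 is not given here, and an effect of the overlap was not tested. GENCODE release 29 lists 7 MTHFD2 pseudogenes and 1 each of SHMT1 and MTHFD1, none with a row in the table.

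MTHFD1L (ENSG00000120254, chromosome 6), the mitochondrial formate-releasing synthetase, was the gene whose groups overlapped. It had 56.8 and 45.8 CPM with Neoribocic and 57.0 and 51.7 CPM with DMSO, a log2 fold change of -0.08 ± 0.21 (edgeR adjusted p = 0.777). The sign was positive with upper-quartile factors (0.04), library totals (0.08) or without Neoribocic replicate 2 (0.07).

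ALDH1L2 (ENSG00000136010, chromosome 12), which oxidises the mitochondrial one-carbon unit and yields NADPH, was the lowest of the 9 genes. It had 2.17 and 2.67 CPM with Neoribocic, from 92 and 127 counts, and 1.52 and 1.65 CPM with DMSO, from 54 and 54 counts. The groups did not overlap, but the log2 fold change of 0.61 ± 0.34 did not pass (edgeR adjusted p = 0.179).

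**Figure D2:**
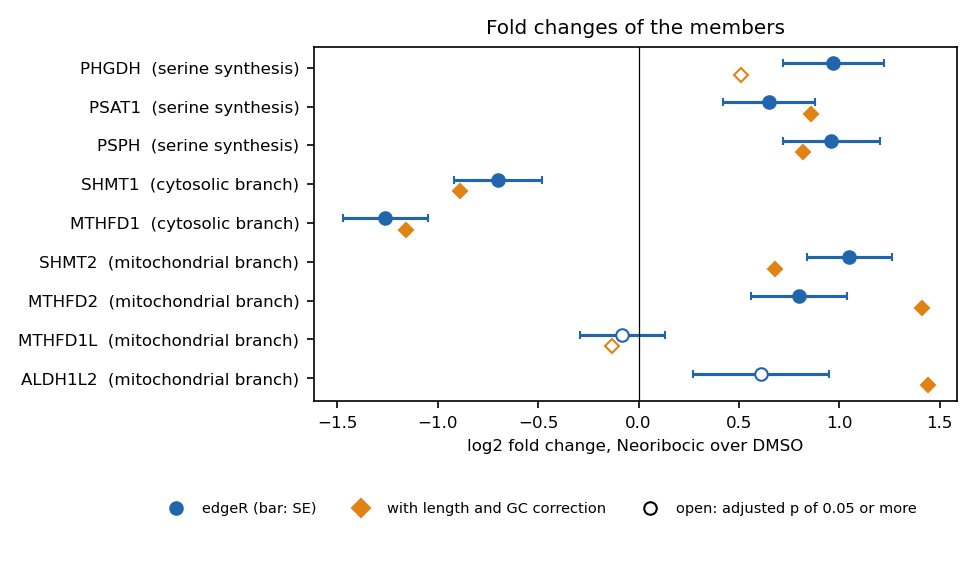
Log2 fold changes of the 9 genes (horizontal axis, Neoribocic over DMSO), ordered by branch; circles are the edgeR estimates with bars of 1 SE, diamonds the estimates with the correction for transcript length and GC content, and open symbols have an adjusted p of 0.05 or more. Both cytosolic genes lie below 0 (SHMT1 at -0.70, MTHFD1 at -1.26) and MTHFD1L lies near it.

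Across all genes with an annotation (13862) the log2 fold change went with transcript length (Spearman correlation -0.40) and with GC content (0.45); these are correlations across genes, which are not independent replicates. A correction that removed a smooth surface of both properties from each library moved PHGDH, SHMT2, MTHFD2, ALDH1L2 and, close to 0, MTHFD1L by more than 1.5 times. PHGDH, at 58.3% GC the richest of the 9 transcripts, went to 0.51 and was no longer called (edgeR adjusted p = 0.123). SHMT2 went to 0.68 and stayed called (edgeR adjusted p = 0.0239). MTHFD2 and ALDH1L2, the transcripts of lowest GC content (41.4% and 42.1%), went to 1.41 and 1.44, so that ALDH1L2 was called (edgeR adjusted p = 0.0153) as was MTHFD2 (0.00567). Corrected log2 fold changes were 0.86 for PSAT1, 0.82 for PSPH, -0.89 for SHMT1, -1.16 for MTHFD1 and -0.13 for MTHFD1L. Corrected medians were 0.82 for the 3 serine synthesis genes, 1.05 for the 4 mitochondrial genes and -1.03 for the 2 cytosolic genes, beside -0.01 for all tested genes.

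The branches were then compared within each library, as the ratio of a mitochondrial enzyme to its cytosolic counterpart, which needs no scaling between libraries. Counts of SHMT2 were 33.2 and 28.3 times those of SHMT1 in the Neoribocic libraries, against 9.23 and 9.18 times in the DMSO libraries. The log2 ratio was 4.94 ± 0.16 with Neoribocic and 3.20 ± 0.01 with DMSO (SD, n = 2 each), a difference of 1.74, or 3.33-fold. Per kilobase of transcript, SHMT2 made up 97.0% and 96.5% of the summed SHMT1 and SHMT2 level with Neoribocic and 90.0% and 89.9% with DMSO.

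MTHFD2 over MTHFD1 gave the largest shift of the 4 ratios. The ratio of counts was 0.732 and 0.636 with Neoribocic and 0.171 and 0.154 with DMSO, a log2 difference of 2.07, or 4.20-fold, and 2.55 after the length and GC correction. MTHFD1L over MTHFD1 was at 0.462 and 0.340 with Neoribocic and 0.162 and 0.196 with DMSO, a log2 difference of 1.16. MTHFD1L did not pass its own test, while MTHFD1 fell. In each of these 3 ratios both Neoribocic libraries exceeded both DMSO libraries. The share of all gene ratios without overlap was not computed, and among single tested genes it was 75.1%. For SHMT2 over SHMT1 and MTHFD2 over MTHFD1 the separation follows from the single genes, which moved in opposite directions without overlap. MTHFD2 over MTHFD1 and MTHFD1L over MTHFD1 share a denominator, so the 3 ratios are not independent. An exact two-sided permutation test of the libraries gave p = 0.333 for each (0.333 adjusted over the 4 ratios). That is the smallest p that 2 libraries against 2 allow.

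ALDH1L2 over ALDH1L1, its cytosolic relative, went the other way. The ratio of counts was 0.979 and 1.95 with Neoribocic and 2.16 and 4.15 with DMSO, a log2 difference of -1.12 that was 0.05 after the correction (exact two-sided permutation p = 0.333). Both genes were low, and ALDH1L1 rested on 94 and 65 counts with Neoribocic and on 25 and 13 counts with DMSO.

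**Figure D3:**
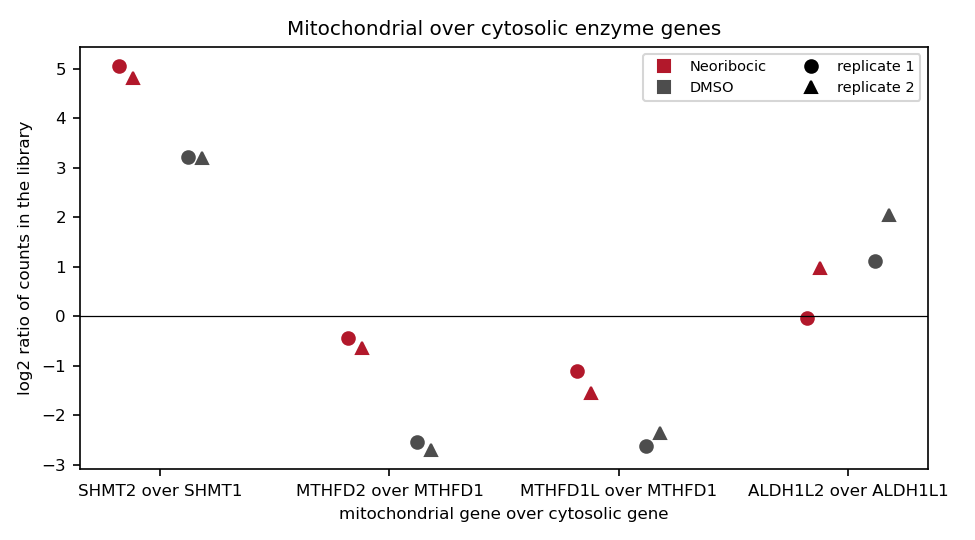
Log2 ratio of counts of a mitochondrial enzyme gene over its cytosolic counterpart (vertical axis) in each library; Neoribocic is at the left of each pair and DMSO at the right, circles are replicate 1 and triangles replicate 2. The Neoribocic libraries are above the DMSO libraries for SHMT2 over SHMT1, MTHFD2 over MTHFD1 and MTHFD1L over MTHFD1, and below them for ALDH1L2 over ALDH1L1.

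Levels of different genes were compared as CPM per kilobase of the GENCODE transcript. With Neoribocic SHMT2 was highest at 225.7 ± 46.4, followed by PSAT1 at 162.7 ± 2.34 CPM per kilobase (SD, n = 2). PHGDH (41.8 ± 9.28) and MTHFD1 (41.1 ± 2.71) came next and their libraries overlapped, as did those of PSPH (17.2 ± 2.92) and MTHFD1L (14.2 ± 2.15), which stood below MTHFD2 (19.7 ± 0.666). SHMT1 (7.52 ± 0.719) and ALDH1L2 (0.321 ± 0.0477) were lowest. With DMSO SHMT2, PSAT1 and MTHFD1 led at 108.9 ± 0.0673, 104.0 ± 28.1 and 98.4 ± 19.9 CPM per kilobase, with neighbours in this order overlapping. PHGDH (21.4 ± 4.80), MTHFD1L (15.1 ± 1.03) and SHMT1 (12.2 ± 0.0502) followed, and SHMT1, MTHFD2 (11.3 ± 3.11) and PSPH (8.84 ± 1.48) overlapped each with the next, with ALDH1L2 lowest at 0.210 ± 0.0116. MTHFD1 was thus level with SHMT2 and PSAT1 within the spread with DMSO, and below both with Neoribocic.

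Beyond the 9 genes, 56 genes of the surrounding pathways were listed, of which 49 were tested; 12 were called higher and 9 lower, with a median log2 fold change of 0.14. These counts are near the background of 19.1% higher and 21.3% lower among all tested genes, and the counts of the single lists are small. GLDC, FTCD, FOLR2, BHMT, BHMT2, MTAP and CBS had too few counts to test. MTAP, the methylthioadenosine salvage enzyme, and CBS, which opens transsulfuration, had 0 counts in every library; CBS has a near-identical copy in current annotations, whose reads may be split or dropped.

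In mitochondria 4 of 9 tested folate and glycine genes rose and 0 fell, beside 19.1% and 21.3% of all tested genes. Among these 4, DMGDH had 36 and 54 counts with Neoribocic and 8 and 2 with DMSO. It passed the count filter only through its Neoribocic libraries, so its place in the count of 4 is no support. MTFMT, which formylates the mitochondrial initiator methionine with a one-carbon unit, rose to 19.0 ± 1.79 CPM with Neoribocic, against 7.58 ± 0.315 CPM with DMSO, a log2 fold change of 1.32 ± 0.23 (edgeR adjusted p = 0.00372). DMGDH, a dehydrogenase of choline breakdown, was low at 0.992 ± 0.205 CPM with Neoribocic and 0.143 ± 0.116 CPM with DMSO (2.75 ± 0.66, edgeR adjusted p = 0.0127) and lost its call without either Neoribocic library (0.0634 and 0.0812). GCAT, which acts in threonine breakdown to glycine, was at 1.02 ± 0.31 (edgeR adjusted p = 0.0288) and at 0.19 with the correction, and lost its call without DMSO replicate 1 or 2 (0.0558 and 0.131) or Neoribocic replicate 1 (0.62, adjusted p = 0.230). MTHFD2L, the relative of MTHFD2 and named after its value was seen, was at 0.90 ± 0.31 (edgeR adjusted p = 0.0454), and was not called with limma-voom, without the robust option, without DMSO replicate 2 or without Neoribocic replicate 1, where its adjusted p was at most 0.295. Of the glycine cleavage system, AMT and GCSH were not called and GLDC had at most 6 counts. DLD was at -0.74 ± 0.28 (edgeR adjusted p = 0.0648) and was called lower with DESeq2, with the replicate block and without Neoribocic replicate 2, at adjusted p down to 0.0472.

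In the cytosol 3 of 7 tested folate genes rose and 2 fell, beside 19.1% and 21.3% of all tested genes. TYMS, which makes thymidylate from a one-carbon unit, fell to 87.6 ± 0.758 CPM with Neoribocic, against 176.8 ± 13.0 CPM with DMSO (-1.01 ± 0.19, edgeR adjusted p = 0.00419); 46.6% of its exon bases overlap the opposite strand. FPGS, which adds glutamates that keep folates in the cell, was at 0.91 ± 0.25 (edgeR adjusted p = 0.0227), and its call was lost with the correction (0.29) and without DMSO replicate 1 (0.109) or Neoribocic replicate 1 (0.148). ALDH1L1 rose by 1.69 from the low counts given above (edgeR adjusted p = 0.0245), a call lost with the correction (0.0671) and without DMSO replicate 2 (0.0880) or Neoribocic replicate 1 (0.213).

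In purine synthesis, a pathway into which one-carbon units go, 3 of 6 genes fell and 0 rose, beside 21.3% and 19.1% of all tested genes. With the length and GC correction the median of the list was -0.07, and PPAT, which opens the pathway, was called higher (0.62, edgeR adjusted p = 0.0385), against 0.09 ± 0.26 without it (adjusted p = 0.808). ADSL, the adenylosuccinate lyase, fell to 27.1 ± 0.637 CPM with Neoribocic, against 50.9 ± 1.36 CPM with DMSO (-0.91 ± 0.21, edgeR adjusted p = 0.00969), with a corrected value of -0.51. Its call was lost with library totals (adjusted p = 0.0522) and without Neoribocic replicate 1 (log2 fold change -0.88). Of its exon bases 18.9% overlap AL022238.4, a protein-coding gene on the same strand, and an effect of this overlap was not tested. ATIC, which uses formyl folate in the final steps, was at -0.69 ± 0.19 (edgeR adjusted p = 0.0197). It lost its call with library totals (0.112) and when any library was left out, where its log2 fold change was -0.70 to -0.67. PAICS was at -0.59 ± 0.18 (edgeR adjusted p = 0.0324), lost its call when any library was left out (0.0756 to 0.167), with upper-quartile factors (0.0783) or with library totals (0.175), and turned to 0.17 with the correction. GART, which also uses formyl folate, was at -0.12 ± 0.18 (edgeR adjusted p = 0.618).

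In the methionine cycle and transsulfuration 2 of 9 tested genes rose and 1 fell, near the background of 19.1% and 21.3%. CTH, which makes cysteine from cystathionine, was at 35.5 and 35.5 CPM with Neoribocic and at 12.1 and 10.9 CPM with DMSO. Both groups were tight and 3.10-fold apart (log2 fold change 1.63 ± 0.22, edgeR adjusted p = 0.00147). MAT2A, which makes S-adenosylmethionine, fell to 192.8 ± 22.3 CPM with Neoribocic, against 399.8 ± 23.8 CPM with DMSO (-1.05 ± 0.19, edgeR adjusted p = 0.00421). AHCY, which clears S-adenosylhomocysteine, was at 0.67 ± 0.23 (edgeR adjusted p = 0.0442), at 0.20 with the correction, and not called with limma-voom (0.0524), without the robust option (0.0565), without DMSO replicate 2 (0.186) or Neoribocic replicate 1 (0.251).

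Genes that use or carry serine moved in both directions. SPTLC3, a subunit of serine palmitoyltransferase, fell to 4.89 ± 0.527 CPM with Neoribocic, against 35 ± 4.16 CPM with DMSO (-2.84 ± 0.25, edgeR adjusted p = 5.52e-04), while SPTLC1 and SPTLC2 were at -0.06 and -0.14 and were not called; with the correction SPTLC2 was called at 0.68 (edgeR adjusted p = 0.0205). SDSL, a relative of serine dehydratase, rose to 30.0 ± 12 CPM with Neoribocic, against 6.73 ± 1.45 CPM with DMSO (2.15 ± 0.34, edgeR adjusted p = 0.00256). With the correction SDSL was at 1.32 (edgeR adjusted p = 0.014). PTDSS1, which exchanges serine into phosphatidylserine, was at -0.55 ± 0.19 (edgeR adjusted p = 0.0459) and lost its call when any library was left out (0.0872 to 0.228), with library totals (0.238), upper-quartile factors (0.109), the correction (0.230) or without the robust option (0.0526). SLC1A5, a neutral amino acid exchanger, rose by 1.27 ± 0.24 (edgeR adjusted p = 0.00498; corrected 0.79), with 23.8% of its exon bases overlapped on the opposite strand. SLC38A1, another neutral amino acid carrier, was at -0.80 ± 0.21 (edgeR adjusted p = 0.0159) but at 0.09 with the correction, and lost its call with library totals (0.0558) and without DMSO replicate 1 (0.0708) or Neoribocic replicate 1 (0.122). SFXN1 and SFXN3, mitochondrial serine carriers, were at -0.26 and 0.03 and were not called. Of the 3 tested folate uptake genes SLC46A1, the proton-coupled folate transporter, was called at 0.92 ± 0.25 (edgeR adjusted p = 0.0182), with 61.5% of its exon bases overlapped on the opposite strand; the call was lost without DMSO replicate 2 (0.0872) or Neoribocic replicate 2 (0.0835).

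**Figure D4:**
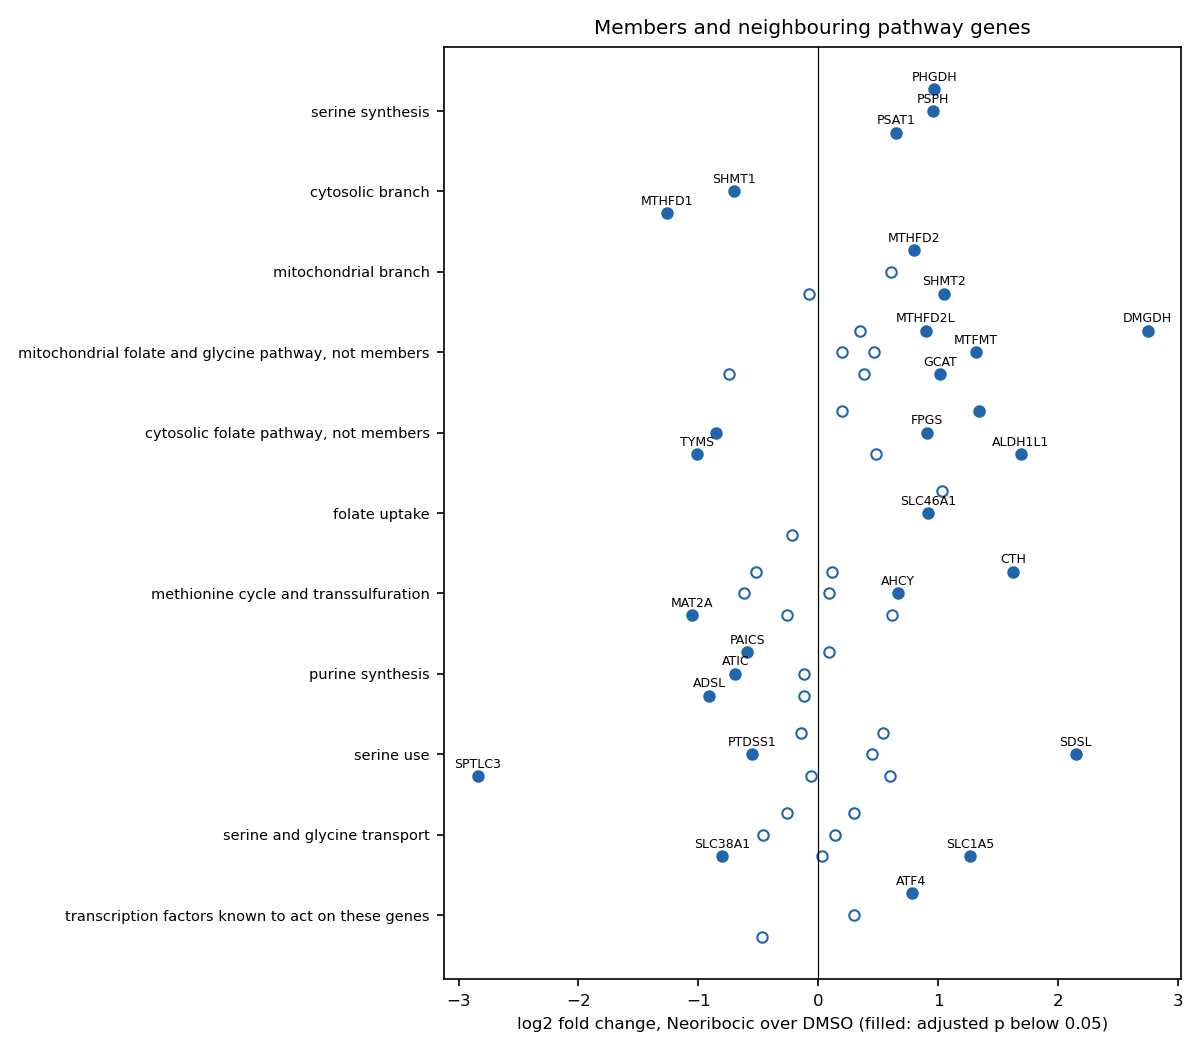
Log2 fold changes (horizontal axis, Neoribocic over DMSO) of the 9 genes in the upper 3 rows and of the tested genes of 8 neighbouring lists under them; each circle is a gene, filled circles have an adjusted p below 0.05, and those described in the text are named. Serine synthesis genes lie right of 0, the cytosolic branch left of it, and purine synthesis has filled circles at the left only (PAICS, ATIC, ADSL).

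Of the transcription factors known to act on these genes, ATF4 was at 786.4 and 549.2 CPM with Neoribocic and at 405.3 and 373.0 CPM with DMSO. Its log2 fold change was 0.78 ± 0.23 (edgeR adjusted p = 0.0252), and 0.24 with the correction (adjusted p = 0.321); leaving out DMSO replicate 1 (0.0640), DMSO replicate 2 (0.0974) or Neoribocic replicate 1 (0.51, adjusted p = 0.179) ended the call too. NFE2L2, the gene of NRF2, was at -0.47 ± 0.20 (edgeR adjusted p = 0.0858). MYC was at 25.6 and 20.1 CPM with Neoribocic and at 7.98 and 29.3 CPM with DMSO, groups that overlap, at 0.30 ± 0.63 (edgeR adjusted p = 0.735); it turned to -0.44 with the correction and to -0.36 without DMSO replicate 1, and was called at 1.53 without DMSO replicate 2 (adjusted p = 0.0154).

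The genes whose pattern over the 4 libraries was nearest to PSAT1, by the Euclidean distance of centred log2 CPM, were YPEL2, ZNF816 and MEGF11, at distances of 0.047, 0.048 and 0.063. Nearest to MTHFD2 were ZNF740, FGGY and GTPBP10, at 0.063, 0.065 and 0.066. YPEL2, ZNF816, MEGF11 and FGGY were not called (edgeR adjusted p = 0.0997, 0.0891, 0.146 and 0.0688), while ZNF740 and GTPBP10 were called higher (0.0242 and 0.0261). MEGF11 and FGGY were low, at no more than 1.58 and 1.84 CPM. Nearness over 4 libraries does not show shared regulation, which was not tested.

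The libraries held 34774542 to 43014212 counts. Genes of the mitochondrial DNA held 5.76% and 7.24% of counts with Neoribocic and 8.68% and 21.7% with DMSO. Without these genes the 9 genes kept their calls. Of the markers of the line VIM (vimentin) stood at 2804 to 4238 CPM and AXL at 1110 to 1821 CPM, while of 8 luminal markers CDH1 (E-cadherin) did not exceed 0.141 CPM and ESR1 (the estrogen receptor) 0.649 CPM, but the keratin genes KRT8 and KRT18 stood at 290.0 to 497.9 and 148.2 to 310.3 CPM. The luminal markers summed to 684.0 and 511.4 CPM with Neoribocic and 549.0 and 652.5 CPM with DMSO. The summed level of the 6 markers of the line was 5002 and 5243 CPM with Neoribocic and 7209 and 8642 CPM with DMSO. The 4 fibroblast markers summed to 8.29 and 8.57 CPM with Neoribocic and 10.2 and 9.88 CPM with DMSO, and COL1A2 and DCN among them were at 0. The 3 endothelial markers did not exceed 1.44 CPM in sum, with CDH5 at 0. Of the 4 immune markers CD3E was at 0 and PTPRC, the general leukocyte marker, at no more than 0.620 CPM, while CD68, a lysosomal gene that many cell types express, was at 312.6 and 266.2 CPM with Neoribocic and 157.1 and 339.6 CPM with DMSO.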

How the data were processed

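The deposited table holds whole-number counts per Ensembl gene, 1 column per library, and was not normalized. Aligner, counter, strand setting and annotation are not given in the sources used, and the submitters' processing notes name the mouse builds GRCm38 and mm10 for human gene IDs. Libraries were built from 1.4 µg of total RNA with an mRNA kit, per the labels' protocols. Small counts were mostly even (62.3% to 65.4% of those under 20, against 50.3% to 51.3% of those from 20 to 200), a pattern that counting both mates of a pair would give, which would leave fewer independent fragments than counts.

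Of 20263 IDs 20148 were matched to symbols. The filter was filterByExpr and the scaling TMM, followed by the robust quasi-likelihood test of edgeR 4.0.16 (R 4.3.3) with the group as the only term. SE is the log2 fold change over the square root of F. CPM values are TMM-scaled. Alternatives were other scalings, filters, DESeq2 1.42.0, limma-voom 3.58.1, no robust option, halved counts, no mitochondrial DNA genes, a replicate block, each library left out and, with mgcv 1.9.3, a correction for length and GC content of 1 GENCODE transcript per gene. Without either library of a group, the lone one is assumed to vary like the other group. The fit was tested on simulated data with 200 changed genes and no trend with length or GC content. That run cannot tell how reliable the calls are in these data, where 40.4% of tested genes were called. Ratios were tested by exact permutation in scipy 1.17.1.

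The 9 genes, the lists and the alternatives were chosen with earlier results of these data known. Named beyond the 9 were, per list and direction, up to 3 called genes of smallest p, the transcription factors whole, and the 3 genes nearest in pattern to PSAT1 and to MTHFD2. MTHFD2L, GART, SPTLC1, SPTLC2, SFXN1, SFXN3, the untested genes and the glycine cleavage genes were named after their values were seen. Some named genes of the lists are counted but not reported here.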

Additional observations from a re-analysis of the deposited data

How the results depend on the processing

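The 4 libraries limit every result: calls of single genes were often lost with a library left out, in a fit with fewer libraries. The log2 fold change of ATIC then ran from -0.70 to -0.67 and that of SHMT1 from -0.79 to -0.60. With all libraries they were -0.69 and -0.70, so a lost call does not by itself show dependence on 1 library. PSAT1 ran from 0.40 to 0.95, against 0.65 with all libraries. The count of genes called was 5610, ran from 2468 to 4536 with a library left out (lowest without Neoribocic replicate 1) and was 2883 at a threshold of 0.01. The 5 members called higher became 1 to 5 with a library left out, with 1 (SHMT2) without DMSO replicate 2 or Neoribocic replicate 1, and 1 at the 0.01 threshold. The 2 called lower became 1, MTHFD1, with any library left out, under upper-quartile scaling, library totals and the replicate block, and at the 0.01 threshold. The 12 pathway genes called higher became 6 to 11 with a library left out and 5 at 0.01. The 9 called lower became 3 to 7 with a library left out, 3 with library totals, 5 with the length and GC correction and 4 at 0.01. With that correction the difference of ALDH1L2 over ALDH1L1 reversed to 0.05, PAICS to 0.17, SLC38A1 to 0.09 and MYC to -0.44, and with a library left out the difference of ALDH1L2 over ALDH1L1 ran from -1.61 to -0.62. MYC ran from -0.36 to 1.53 with a library left out and MTHFD1L from -0.24 to 0.07; MTHFD1L was 0.04 under upper-quartile scaling and 0.08 under library totals. The other 3 ratios kept their direction under the correction, with halved counts, with 1 count added and with each library left out, the alternatives run for ratios. The causes were not tested.

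Nothing in the labels says what libraries of equal replicate number share. Their deviations correlated at -0.055 across genes, a single value that cannot tell whether they share a culture or batch. With the replicate block 5594 genes were called, and SHMT1 (adjusted p = 0.0542) was the member that lost its call; of the pathway genes PAICS (0.0565) and PTDSS1 (0.0813) lost theirs.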

Other observations

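The 9 genes did not move alike between replicates. On the log2 scale DMSO replicate 2 stood below DMSO replicate 1 by more than the lower quartile of all genes (-0.29) in PSAT1 (-0.56), MTHFD2 (-0.56), PHGDH (-0.46), MTHFD1 (-0.41) and PSPH (-0.33), while SHMT1 (0.01), SHMT2 (0.00) and ALDH1L2 (0.09) did not differ by 0.1. Between the Neoribocic libraries, replicate 2 stood below replicate 1 by more than the lower quartile (-0.23) in PHGDH (-0.45), SHMT2 (-0.42), PSPH (-0.34) and MTHFD1L (-0.31), and PSAT1 (0.03) and MTHFD2 (-0.07) were nearly level. PHGDH and PSPH thus differed in the same direction in both groups, and PSAT1 and MTHFD2 in the DMSO libraries alone among these 4 genes.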
